A study of Mus musculus with 2 samples.

Results

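Cluster 3 of the deposited clustering is a group of thymocytes at the DP stage, at which cells carry both coreceptors CD4 and CD8, and it was set apart from the other DP clusters chiefly by the near absence of the T cell receptor constant gene Trbc1 together with a high level of Ly6d. Its members were all cells to which the deposited cell table gives the number 3 at Seurat resolution 1.5, and they number 1319 of 13683 cells (9.64%, 95% Clopper-Pearson interval 9.15 to 10.2). Clusters 0, 1, 2 and 4, with 2326, 1989, 1428 and 1215 cells, are the DP clusters most like it and served for comparison. The cells came from whole thymus of 10 littermate mice aged 6 weeks. All carried floxed Cdc42 alleles, 5 without Cre (Cdc42f/f, called WT) and 5 with it (Cdc42f/f CD4Cre, called KO). In the KO mice Cre is driven by the CD4 promoter, which becomes active as thymocytes reach the DP stage. The cells of the 5 mice of each genotype were pooled into 1 library, made with the 10x Genomics 3′ kit, so each genotype is 1 sample without replicates, and the genotypes were compared by values alone, with no test. A cell was given to the WT or the KO library by the letters in its name, and 572 cells of cluster 3 came from the WT and 747 from the KO library.

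A thymocyte assembles the gene of its T cell receptor β chain from V, D and J segments with the recombinase made of Rag1 and Rag2, and the terminal transferase encoded by Dntt adds bases at the junctions. The mouse β locus holds its D and J segments in a pair of blocks, each followed by a constant gene, Trbc1 or Trbc2. A complete V-D-J junction that ends in a J segment of the second block has, as a rule, lost the DNA between its V and J segments, Trbc1 included. A junction in the first block leaves both constant genes in place. After a β chain has been made, thymocytes turn on CD4 and CD8, divide, and then rearrange the α chain as DP cells until positive selection or death by neglect. Ly6d is a small GPI-anchored surface protein of the Ly6 family that is found on lymphoid progenitors and immature thymocytes.

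The sums of unique molecular identifiers (UMIs, 1 for each captured transcript molecule) over the cells of a cluster and library were divided by all UMIs of that cluster and library and scaled to a total of 1000000 (CPM), and a log2 ratio compares such values. Intervals in parentheses are exact 95% intervals and cover counting error only. Cells of cluster 3 held a median of 3115.5 UMIs in the WT and 3360 in the KO library. Over both libraries the median was 3242, which is 1.10 times that of clusters 0, 1, 2 and 4, and cells of cluster 3 held a median of 6.03% mitochondrial UMIs. Of cell barcodes, 17 occurred in both libraries, and 1 WT and 3 KO cells of cluster 3 carried such a barcode. The doublet caller Scrublet marked 2 of 6115 WT cells and no KO cell, which is too few for it to have worked, so no doublet was removed. Of 69 genes listed as markers of other thymic cell types, 14 had no UMI in cluster 3 and 12 reached 25 CPM. Csf1r and Cd79a, which define macrophages and B cells, had 0 UMIs, and S1pr1 of mature single-positive (SP) cells had 0. Those that reached 25 CPM were Itm2a, Ms4a6b, Klf2 and Gimap6 of SP cells, Ptcra of double-negative thymocytes, Trdc and Gzma of γδ T cells, Apoe and Ctsb of macrophages, Cd79b and Ighm of B cells and Cst3 of dendritic cells.

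The DP label held in the markers. Rag1 stood at 2606 CPM in the WT and 2481 CPM in the KO library, Dntt at 1607 and 1412 CPM, and Cd8a, the α chain of CD8, at 1864 and 1942 CPM. In clusters 0, 1, 2 and 4 together these genes stood at 2886, 1465 and 1921 CPM, so cluster 3 had the same kind of profile with slightly less Rag1, at a log2 ratio of −0.19 (−0.22 to −0.16). Against cluster 4 alone Rag1 was higher in cluster 3, at 0.23. A Rag1 UMI was found in 96.5% of its cells and a Dntt UMI in 95.4%. On GRCm38, Rag1 lies on the minus strand at chr2:101638282-101649501, Dntt on the plus strand at chr19:41029275-41059525 and Cd8a on the plus strand at chr6:71373427-71379173.

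Trbc1 and Trbc2 are shown in sequence because the description of cluster 3 rests on telling their transcripts apart. On GRCm38 with the GENCODE vM21 annotation, Trbc1 spans chr6:41538218-41539881 and Trbc2 spans chr6:41546730-41548352, both on the plus strand, with 6848 bases between them. The segment Trbd2 lies in that gap at chr6:41542163-41542176, and Trbd1 lies before Trbc1 at chr6:41533201-41533212. Their coding exons are nearly alike at the 5′ end and differ toward the 3′ end, the end that a 3′ kit is made to read. In exon 1, 374 of 375 bases are identical, and the base that differs is in capitals in these stretches of 21 bases, chr6:41538467-41538487 and chr6:41546979-41546999.
Trbc1: acaatcctcgCaaccacttcc
Trbc2: acaatcctcgAaaccacttcc
Exon 3, at chr6:41539229-41539335 and chr6:41547772-41547878, has 92 identical bases of 107, and capitals again mark those that differ.
Trbc1: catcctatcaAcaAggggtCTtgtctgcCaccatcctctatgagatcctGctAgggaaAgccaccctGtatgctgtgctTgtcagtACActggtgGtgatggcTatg
Trbc2: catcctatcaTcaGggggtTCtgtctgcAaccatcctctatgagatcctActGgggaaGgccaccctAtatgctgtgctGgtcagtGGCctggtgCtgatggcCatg
The 3′ untranslated parts, of 216 and 171 bases, share 101 aligned bases (46.8%). The longest run that the transcripts share is 259 bases, so a read inside it cannot be given to either gene. A read over 3′ bases that differ can be, but where the reads lie was not examined.

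Trbc1 was close to absent in cluster 3. It stood at 52.5 CPM in the WT library (98 UMIs) and at 56.0 CPM in the KO library (147 UMIs), against 6034 CPM in cluster 0, 6429 in cluster 1 and 7509 in cluster 4. Cluster 2 had the same low level, 54.6 CPM. The log2 ratio of cluster 3 was −6.98 (−7.17 to −6.80) to clusters 1 and 4 summed and −0.00 (−0.27 to 0.27) to cluster 2. These ratios, like all ratios between clusters given here, are descriptions without a test, since the clusters were made from the same genes.

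The few Trbc1 UMIs of cluster 3 were spread thinly over its cells. At least 1 was found in 205 of 1319 cells (15.5%, 13.6 to 17.6), in 13.5% of WT and 17.1% of KO cells. Of all cells of cluster 3, 1114 had none, 178 had 1, 21 had 2 and 2 had at least 5, the highest value being 6. In clusters 0, 1 and 4 every cell had a Trbc1 UMI, and 85.7%, 90.4% and 95.5% had at least 5. In cluster 16, which is led by the macrophage gene C1qa and should lack the gene, the share was 16 of 79 cells (20.3%, 12 to 30.8, median 759 UMIs per cell), and 1 of these cells had at least 5. With cells thinned to 1000 UMIs the share was 4.49% in cluster 3, 5.22% in cluster 2 and 95.2% in cluster 0. At the deposited depth the share in cluster 3 lay within the interval of cluster 16. Cells of cluster 16 held fewer UMIs (a median of 759 against 3242) and were not thinned, so this comparison cannot tell whether the Trbc1 UMIs of cluster 3 are expression. That was not tested.

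Trbc2 was present in every cell of cluster 3, with a median of 30 UMIs. It stood at 10905 CPM in the WT and 9938 CPM in the KO library, against 8810 in cluster 2, 8172 in cluster 4, 6218 in cluster 1 and 6127 in cluster 0. Cluster 3 was thus the highest of the 5 DP clusters in Trbc2 and among the lowest in Trbc1. The log2 ratio for Trbc2 was 0.55 (0.54 to 0.57) to clusters 1 and 4 and 0.23 (0.21 to 0.25) to cluster 2.

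**Figure D1:**
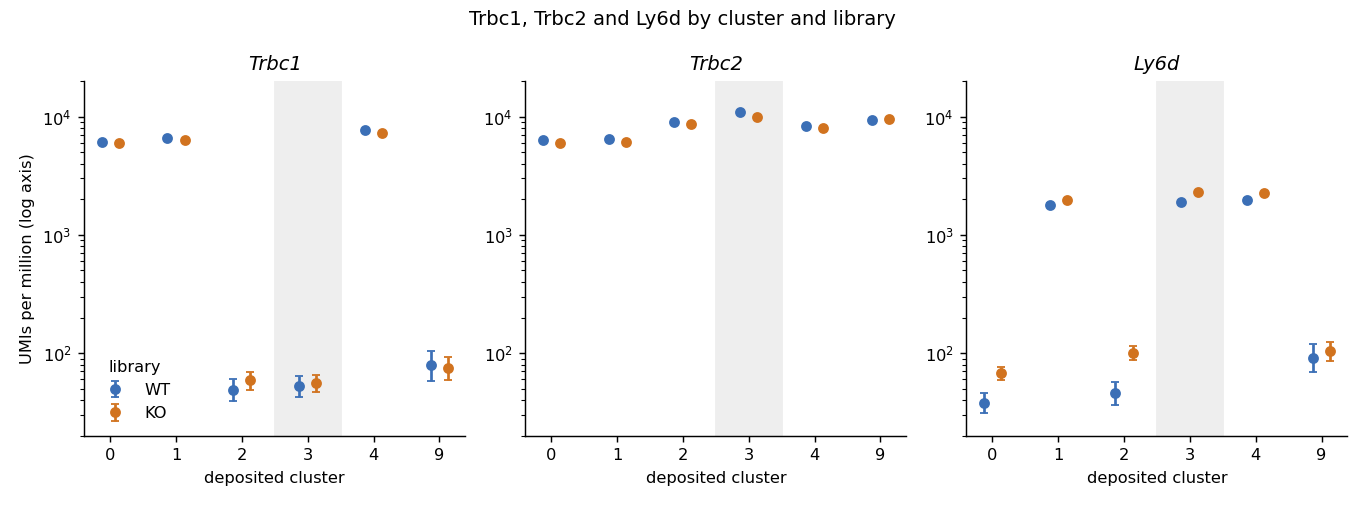
Summed level in CPM, on a log axis, of Trbc1, Trbc2 and Ly6d in the DP clusters 0 to 4 and in cluster 9, with the WT library in blue, the KO library in orange, exact 95% Poisson bars for counting error and cluster 3 shaded. Cluster 3 shares the low Trbc1 level of cluster 2 (54.5 and 54.6 CPM) and the high Ly6d level of clusters 1 and 4 (2125, 1898 and 2129 CPM).

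Seen cell by cell, the split was sharp. The share of Trbc1 among a cell's Trbc1 and Trbc2 UMIs had a median of 0 in cluster 3 and lay under 5% in 1254 of 1319 cells (95.1%). In cluster 2 it lay under 5% in 94.0% of cells. The median share was 47.9% in cluster 0, 50.9% in cluster 1 and 46.7% in cluster 4, where cells spread over the whole range.

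**Figure D2:**
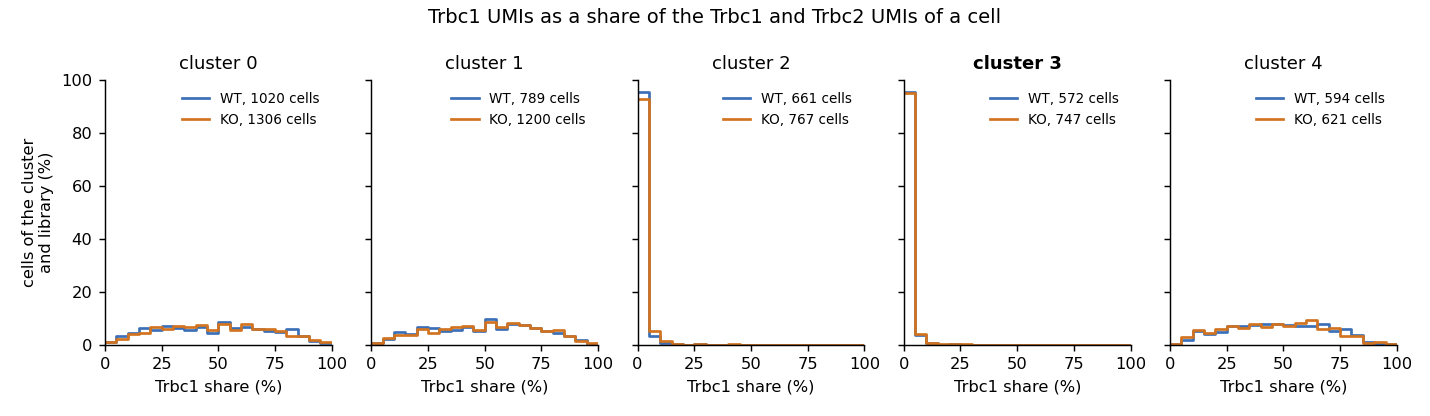
Share of Trbc1 in the Trbc1 and Trbc2 UMIs of each cell, in bins of 5%, as the percent of cells of clusters 0 to 4 in the WT and KO libraries. Clusters 2 and 3 fill the lowest bin (94.0% and 95.1% of their cells), and clusters 0, 1 and 4 spread around medians of 46.7% to 50.9%.

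Ly6d separated cluster 3 from the other Trbc1-low cluster. It lies on the minus strand of GRCm38 at chr15:74762056-74763620. In cluster 3 its level was 1887 CPM in the WT library (3523 UMIs) and 2294 CPM in the KO library (6025 UMIs), against 76.7 CPM in cluster 2, a log2 ratio of 4.79 (4.63 to 4.96). Clusters 1 and 4, with 1898 and 2129 CPM, were close to cluster 3, at a log2 ratio of 0.09 (0.06 to 0.12) for both summed, and cluster 0 had 55.6 CPM. A Ly6d UMI was found in 93.4% of the cells of cluster 3, in 14.3% of those of cluster 2 and in 11.8% of those of cluster 0. In cells thinned to 1000 UMIs the shares were 75%, 6.21% and 5.08%, and in cluster 16 at its deposited depth 7.59%. The 5 DP clusters therefore fell into 4 kinds by these genes, with clusters 1 and 4 sharing 1 kind, and cluster 3 was the only one of the 5 that was low in Trbc1 and high in Ly6d. Clusters 2 and 3 together, low in Trbc1, made up 33.9% of the cells of these 5 clusters in the WT and 32.6% in the KO library.

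How many other genes set cluster 3 apart depended on the neighbour, and the counts were higher in each library alone, which holds fewer UMIs. A gene entered a comparison when the mean of its CPM on both sides was at least 25, and counted as higher or lower at a log2 ratio of 0.5 or more in size. Against cluster 1 alone, 33 of 5451 genes were higher (0.605%) and 43 lower (0.789%). Against cluster 4 alone, 52 of 5271 were higher (0.987%) and 10 lower (0.19%). Against clusters 1 and 4 summed, a comparison added later, 7 of 5381 genes were higher (0.13%) and 2 were lower (0.0372%). Within the WT library 29 were higher and 30 lower (0.55% and 0.569%), and within the KO library 16 and 19 (0.295% and 0.35%). Of the 7 and 2 genes, H2bc4, Gm12840, Vim and Trbc2 also had a ratio of 0.5 or more in each library alone. Trbc1 and Ttyh3 were lower by that size in each. For this the minimum level was asked of both libraries summed, and in the KO library alone H2bc4 fell below it. Gm12840 and Ttyh3 are named only because they complete these short lists, after their values were seen. Against cluster 2, 62 of 5429 genes were higher (1.14%) and 103 lower (1.9%), of which 35 and 39 passed the same size in each library. Within the WT library the counts were 159 and 305 (2.97% and 5.71%), and within the KO library 80 and 147 (1.46% and 2.67%). Against clusters 0, 1, 2 and 4 summed, 14 of 5410 genes were higher (0.259%) and 14 lower (0.259%). With totals that left out ribosomal protein and mitochondrial genes this last split became 17 and 9.

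The genes described next ranked highest against clusters 0, 1, 2 and 4. Vim, which encodes the intermediate filament vimentin, stood at 60.5 CPM in the WT and 72.0 CPM in the KO library, against 39.6 CPM in clusters 0, 1, 2 and 4, a log2 ratio of 0.77 (0.57 to 0.96). Its ratio was 0.63 to clusters 1 and 4 and 0.78 to cluster 2, but 0.20 (−0.04 to 0.44) to cluster 4 alone, at 58.4 CPM. Vim was high in the smaller of the subclusters described below, at 102 CPM, and in the larger, at 33.1 CPM, it lay below the level of the 4 clusters. Lgals1, the secreted lectin galectin-1, stood at 541 and 620 CPM against 373 CPM, and its ratio of 0.66 (0.59 to 0.72) to all 4 clusters fell to 0.24 against clusters 1 and 4. Gzma, the serine protease granzyme A, gave a like pattern, with 80.9 and 81.9 CPM against 48.3 CPM and ratios of 0.76 and 0.26. Anxa2 (annexin A2), Cnn2 (calponin 2), Crip1 (a LIM-domain protein) and the noncoding RNAs Zfas1 and 2410006H16Rik had ratios of 0.45 to 0.52 to the 4 clusters and of 0.12 to 0.22 to clusters 1 and 4. All genes of this paragraph other than Vim were below cluster 4 taken alone.

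The genes ranked lowest were mostly of low count. Car2, carbonic anhydrase 2, stood at 23 CPM in the WT and 25.1 CPM in the KO library against 42.4 CPM, a log2 ratio of −0.80 (−1.10 to −0.52). Topbp1, a scaffold of DNA replication and damage signalling, stood at 38.6 and 41.9 CPM against 60.4 CPM, at −0.57 (−0.81 to −0.35). The mismatch repair gene Msh6 had a ratio of −0.46, the repressor scaffold Sin3a −0.45, the transcription factor gene Trps1 −0.54 and the kinase gene Map4k5 −0.50. Against cluster 4 alone all 6 of these genes stood higher in cluster 3, with ratios from 0.08 for Msh6 to 0.65 for Car2.

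**Figure D3:**
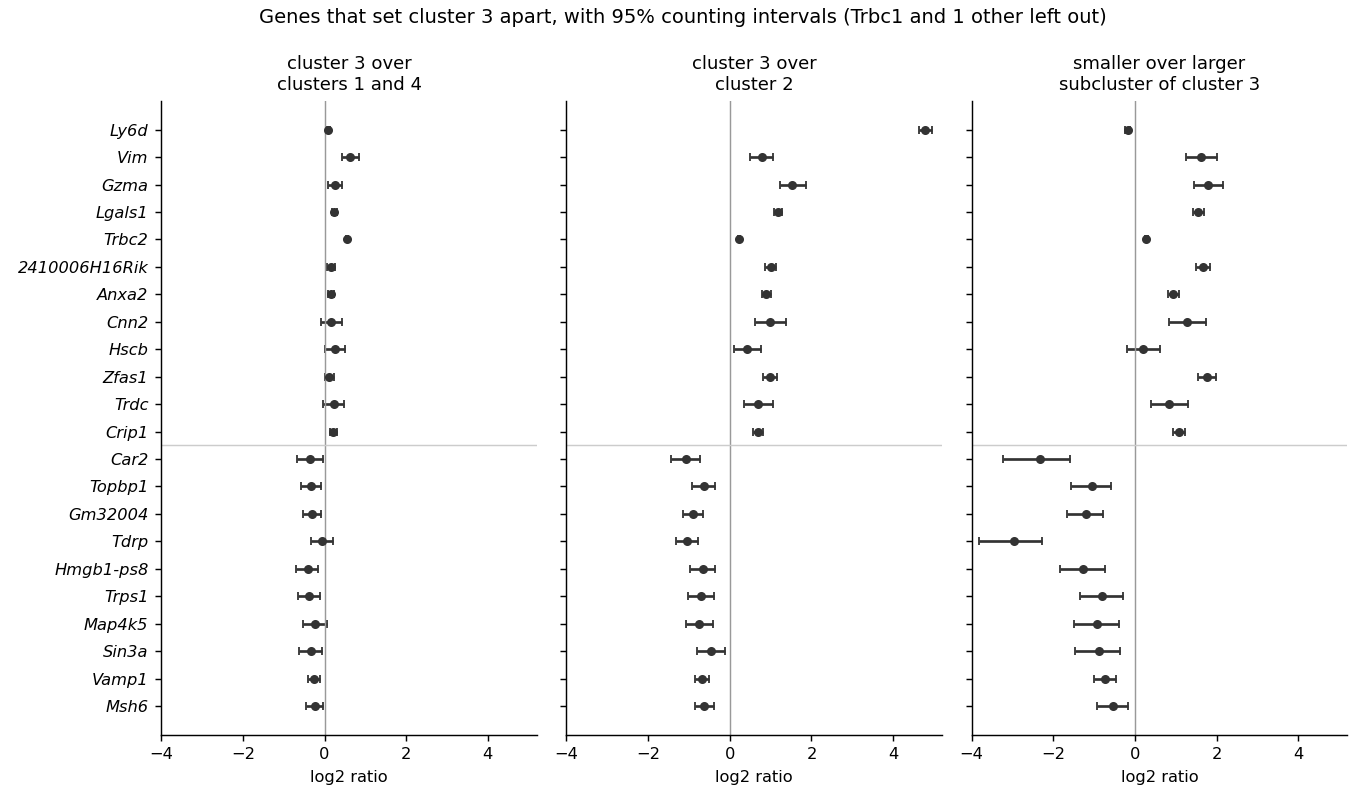
Log2 ratios with exact 95% intervals of the 12 genes most above and 10 of the 12 most below clusters 0, 1, 2 and 4 in cluster 3 (Trbc1, off the scale, and 1 other are not drawn), shown for cluster 3 over clusters 1 and 4, cluster 3 over cluster 2, and the smaller over the larger subcluster of cluster 3. Most ratios to clusters 1 and 4 lie near 0, and those between the subclusters reach 1.79 for Gzma and −2.96 for Tdrp.

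At resolution 2 cluster 3 was deposited as a pair of subclusters. The larger held 778 of its 1319 cells (cluster 5 at that resolution) and the smaller 533 (cluster 8), with 8 cells elsewhere, whereas resolution 1.8 kept 1314 of the 1319 together. Between the subclusters, 261 of 5333 genes were higher in the smaller (4.89%) and 619 lower (11.6%). Of these, 159 and 292 reached a ratio of 0.5 in size in each library, the minimum level being asked of both libraries summed. The larger subcluster differed little from cluster 1 (18 of 5515 genes higher, 0.326%, and 20 lower, 0.363%) and the smaller little from cluster 4 (20 of 5163 higher, 0.387%, and 25 lower, 0.484%). The larger was also close to cluster 2, with 28 of 5501 genes higher (0.509%) and 30 lower (0.545%). Clusters 4 and 1 differed from each other at 150 and 358 of 5349 genes (2.80% and 6.69%). In Trbc1 itself neither subcluster was near clusters 1 and 4, with 56.8 CPM in the larger and 52.2 CPM in the smaller.

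The smaller subcluster had more UMIs per cell, a median of 3791 against 2943, and a median of 17.8% ribosomal protein UMIs against 12.9%. Of 83 ribosomal protein genes that entered, 37 were higher in it by 0.5 or more and none lower, with a median log2 ratio of 0.48 beside −0.13 for all genes. Histone genes went the same way, 11 of 21 higher and none lower, with a median of 0.51. Among them were H2bc4 at 77.4 CPM against 13.6 CPM and H1f0, a linker histone of cells that no longer divide, at 73.6 against 29.7 CPM. Of 74 nuclear genes of the respiratory chain 5 were higher, where 4.89% of all genes were, and none lower, with a median of 0.18. Malat1, an abundant nuclear RNA, was lower in it, at a log2 ratio of −0.81 (−0.82 to −0.79).

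Genes of the thymocyte programme also differed between the subclusters. Rag1 was lower in the smaller subcluster, 2031 CPM against 2968 CPM, a log2 ratio of −0.55 (−0.60 to −0.49), and Dclre1c, which encodes the hairpin-opening nuclease Artemis, had −0.51. No other of the 8 V(D)J recombination genes that entered passed 0.5. The pro-apoptotic genes Bmf and Bcl2l11 had ratios of −1.69 (−2.39 to −1.07) and −1.14 (−1.62 to −0.68), and none of the 18 survival and apoptosis genes that entered was higher in the smaller subcluster by 0.5. Of the reporters of receptor signals, Cd5, an inhibitor of T cell receptor signalling, was higher at 92.6 against 58.1 CPM (0.67), and the early activation marker Cd69 was lower at 20.4 against 40.3 CPM (−0.97). Notch1, the receptor that drives T lineage commitment, was higher (0.68) and Rbpj, the DNA-binding partner of Notch, was lower (−0.58). Of the DNA replication genes 5 entered, and Mcm4 (−0.63) and Pcna (−0.54) were lower. Vim (1.61), Lgals1 (1.55), Gzma (1.79) and Klf2 (1.53), which encodes a transcription factor needed for thymus exit, were among the genes higher in the smaller subcluster. The summed levels of Trbc1 (−0.12, −0.50 to 0.25) and Ly6d (−0.18, −0.24 to −0.12) were closer between them. Cells without a Ly6d UMI nevertheless lay almost all in the smaller subcluster, 85 of its 533 cells against 2 of 778 in the larger, so that 84.1% (80.7 to 87.1) and 99.7% held one, although cells of the smaller had more UMIs.

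Gene lists over the whole of cluster 3 moved little against the other DP clusters. All 83 ribosomal protein genes lay above the median of all genes, −0.04, against clusters 0, 1, 2 and 4, with a median of 0.19 and none at 0.5. Against cluster 4 alone none of the 83 did, and their median was −0.17. Of 20 kinases and adaptors of receptor signalling and 18 T lineage transcription factors none passed 0.5 either way against clusters 0, 1, 2 and 4. Of all genes only 0.259% were higher and 0.259% lower by that size in this comparison. Against cluster 2 the T lineage factor Gata3 was higher, with 63.7 CPM in the WT and 76.9 CPM in the KO library against 44.4 CPM and a ratio of 0.69 (0.42 to 0.96), and Notch1 had 0.68 (0.38 to 0.99). Bmf (−0.93), Bcl2l11 (−0.72) and Cd53 (−0.88), a tetraspanin, were lower than in cluster 2. Gata3 and Notch1 had ratios of 0.09 and 0.06 to clusters 1 and 4.

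Coreceptor transcripts were scored in each cell. At the deposited depth 77.7% of the cells of cluster 3 held UMIs of Cd4 and of Cd8a or Cd8b1, and 22.3% held CD8 transcripts without Cd4. When each cell was thinned to 1000 UMIs, leaving out 4 WT cells that had fewer, these shares were 37.6% (35.0 to 40.3) and 61.7%. In clusters 0, 1, 2 and 4 thinned alike the first share was 43.1%, 43.3%, 43.2% and 39.1%. Cd4 also stood lower in cluster 3 by CPM than in the 4 clusters summed, at 474 in the WT and 565 in the KO library against 590, a log2 ratio of −0.16 (−0.23 to −0.10). Cluster 4 alone had 489 CPM in the WT and 509 in the KO library, so cluster 3 was below it in the WT and above it in the KO library. Within cluster 3 the smaller subcluster had less Cd4 (462 CPM) than the larger (585 CPM).

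**Figure D4:**
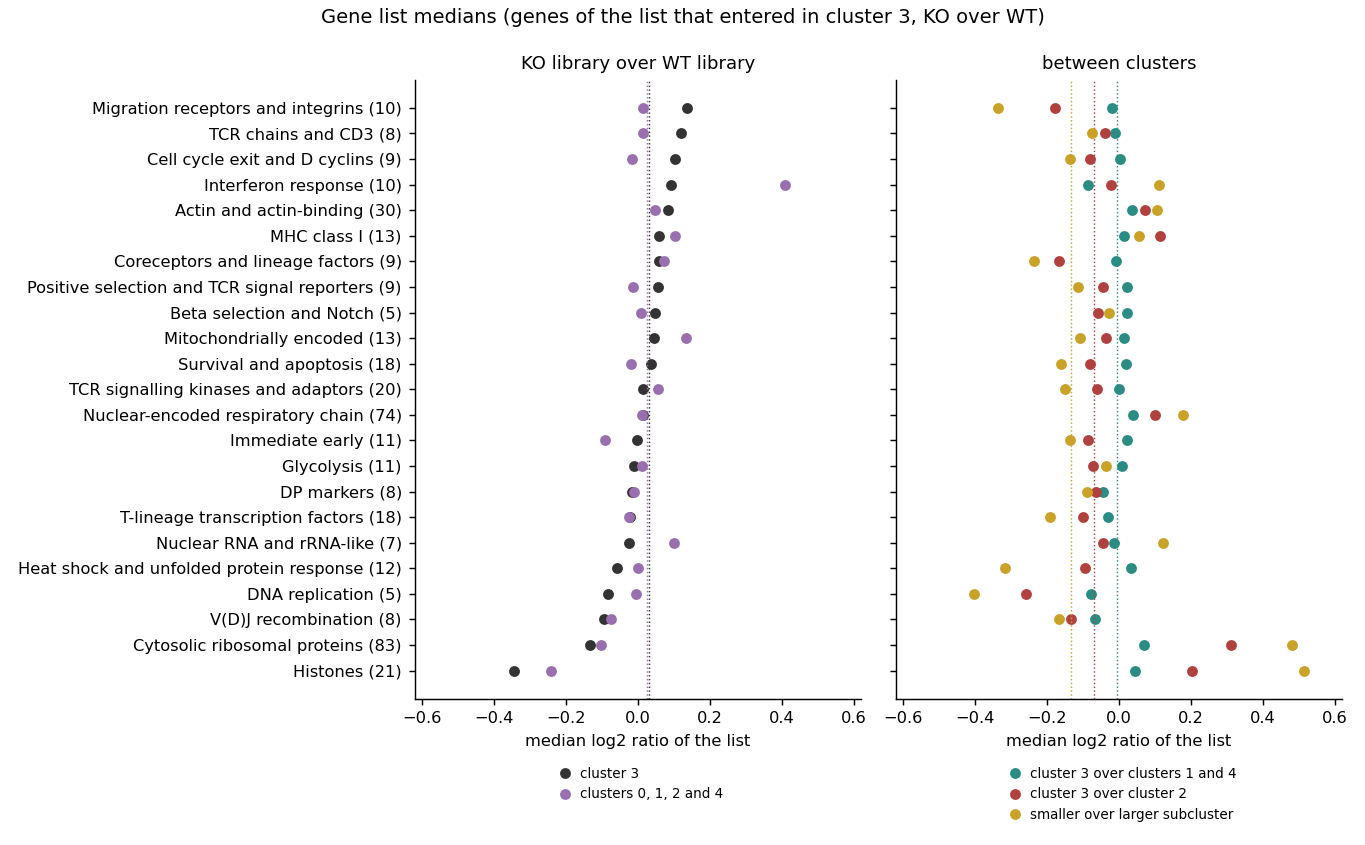
Median log2 ratio of gene lists with at least 5 genes that entered, 1 list being left out, on the left for KO over WT in cluster 3 and in clusters 0, 1, 2 and 4, and on the right for cluster 3 over clusters 1 and 4, cluster 3 over cluster 2, and the smaller over the larger subcluster. Dotted lines give the median of all genes that entered, and the lists farthest from them are, on the left, the interferon response in clusters 0, 1, 2 and 4 (0.41) and histones in cluster 3 (−0.34) and, on the right, histones and ribosomal proteins between the subclusters (0.51 and 0.48).

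Turning to genotype, cluster 3 took nearly the same share of both libraries. It held 572 of 6115 WT cells (9.35%, 8.64 to 10.1) and 747 of 7568 KO cells (9.87%, 9.21 to 10.6), and of the cells of clusters 1, 3 and 4 it was 29.3% in the WT and 29.1% in the KO library. Within it the subclusters shifted. The larger took 50.2% of its WT cells (46.0 to 54.3) and 65.7% of its KO cells (62.2 to 69.1), and the smaller took 48.8% and 34.0%. In clusters 1 and 4, cluster 4 took 43.0% of the WT and 34.1% of the KO cells. Because the make-up of cluster 3 differed between the libraries, ratios of KO over WT are also given within the subclusters for the genes and lists the description turns on.

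Cdc42, the targeted gene, encodes a small GTPase that controls actin and cell polarity, and lies on the minus strand at chr4:137319696-137357720 (GRCm38). Its level in cluster 3 was 361.5 CPM in the WT library (675 UMIs) and 338.5 CPM in the KO library (889 UMIs), a log2 ratio of −0.10 (−0.24 to 0.05). In clusters 0, 1, 2 and 4 the ratio was −0.17 (−0.24 to −0.11). Counts of 3′ ends do not separate a transcript with a deleted internal exon from an intact one, so this gene does not check the labels, and the directions below are for the library labelled KO over the library labelled WT.

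Of 5328 genes in cluster 3, 170 were higher in the KO library by a log2 ratio of 0.5 or more (3.19%) and 64 lower (1.2%), and the median of all was 0.03. The intervals of 160 and 59 of these lay clear of 0, and 9 and 5 reached a log2 ratio of 1. The split depended on scaling, with 122 higher and 90 lower under the TMM factors of edgeR and 117 and 92 under the size factors of DESeq2. In clusters 0, 1, 2 and 4 summed, with more UMIs, 41 genes were higher (0.751%) and 15 lower (0.275%). In clusters 0, 1, 2 and 4 taken singly, 71, 81, 152 and 117 were higher (1.29%, 1.47%, 2.76% and 2.25%). Lower there were 36, 38, 76 and 66 (0.652%, 0.689%, 1.38% and 1.27%). Clusters 2 and 4 are the closest to cluster 3 in number of cells.

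The largest differences in cluster 3 were shared with the other DP clusters. Ctsl, the lysosomal protease cathepsin L, stood at 2417 CPM in the WT and 324 CPM in the KO library, a log2 ratio of −2.90 (−3.01 to −2.79), beside −2.83 in the 4 clusters. Epsti1, an interferon-induced gene, stood at 82.5 and 351 CPM, at 2.08 (1.84 to 2.34) beside 2.51. Dnajc15, a mitochondrial cochaperone, stood at 221 and 581 CPM, at 1.39 (1.24 to 1.55) beside 1.78. These genes were far apart between the libraries in both subclusters, with ratios of −2.82 and −3.04 for Ctsl, 2.43 and 1.82 for Epsti1, and 1.87 and 1.01 for Dnajc15 in the larger and the smaller. The processed pseudogene Gm45315 had the highest ratio, 4.38, from 6.96 to 150 CPM, and as a copy of another gene its reads are uncertain.

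Other genes named by rank were lower in count. Higher in the KO library were mt-Nd3, a mitochondrially encoded subunit of complex I (87.3 and 208 CPM, 1.25 beside 1.19 in the 4 clusters), Inpp4b, a phosphoinositide phosphatase (1.12 beside 1.29), Rell1 (1.31 beside 1.12), Ehd3 of endosome recycling (1.08 beside 0.59) and Adgre5, the adhesion receptor CD97 (60.5 and 120 CPM, 0.98 beside 0.57). Klf2 stood at 8.57 and 51.4 CPM, a ratio of 2.55 (1.83 to 3.43) beside 1.54 (1.18 to 1.93), and its ratio was 2.53 in the larger and 2.82 in the smaller subcluster. Bmf stood at 15 and 36.2 CPM, at 1.25 (0.65 to 1.93) beside 0.64. Lower in the KO library were Gnb4, a G protein β subunit (−1.32 beside −0.95), Arl3, a small GTPase of cilia (−1.09 beside −1.14), Phlda1 (−0.92 beside −0.85), Mri1 of methionine salvage (−0.92 beside −0.56) and Insl5, an insulin-like peptide (87.8 and 48.0 CPM, −0.87 beside −0.87). Each gene of this paragraph had its ratio on the same side of 0 in cluster 3 and in the 4 clusters summed.

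**Figure D5:**
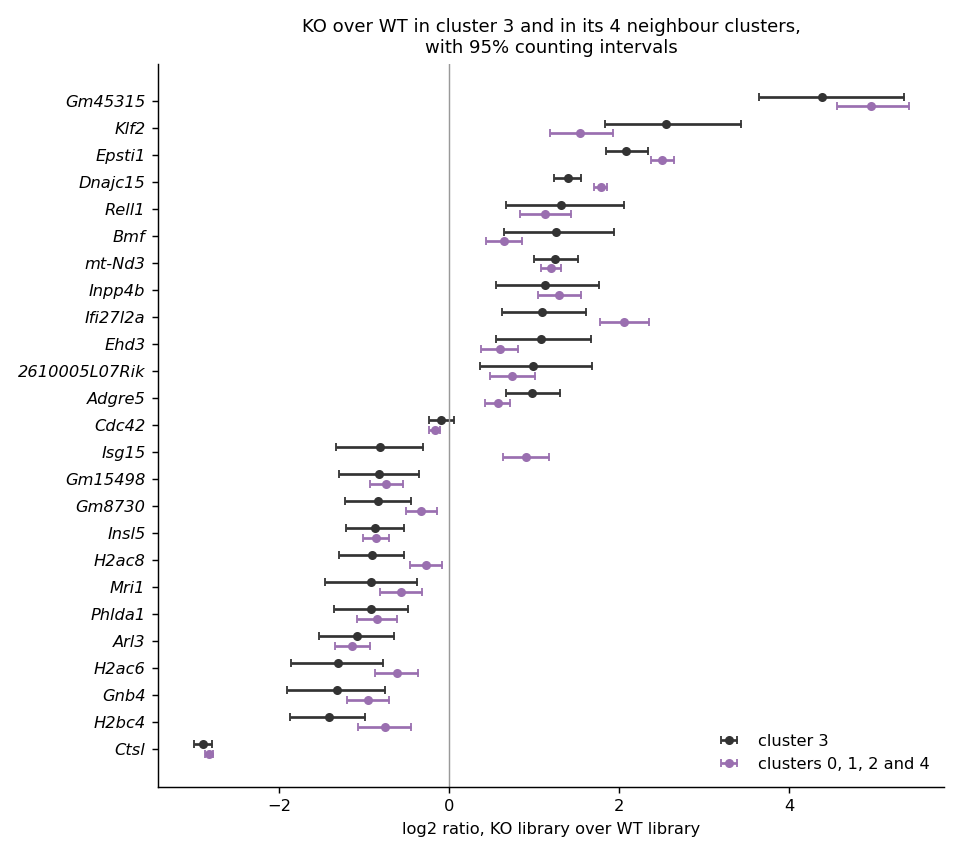
Log2 ratio of the KO over the WT library, with exact 95% intervals for counting error, of the 12 highest and 12 lowest genes with at least 100 UMIs in cluster 3 and of Cdc42, in cluster 3 (dark) and in clusters 0, 1, 2 and 4 summed (purple). Ctsl and Gm45315 lie at −2.90 and 4.38, Cdc42 at −0.10, and Isg15 is the gene whose points stand on opposite sides of 0 (−0.82 and 0.90).

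Of these genes, Dnajc15 (chr14:77820681-77875125) and Epsti1 (chr14:77904239-78002657) lie near each other in the genome, separated by 29113 bases. Of the 24 genes ranked highest and lowest, 21 had a position in GENCODE vM21, and 6 of these lie on chromosome 8, namely Klf2, Inpp4b, Adgre5 and 2610005L07Rik among the higher and Mri1 and Gm8730 among the lower. They are spread along the chromosome, from 2610005L07Rik at chr8:20385782-20424814 to Gm8730 at chr8:102864845-102865798. Chromosome 8 held 275 of the 5281 genes with a position that entered (5.21%), and 16 of these were higher (5.82%, beside 3.18% over all chromosomes) and 6 lower (2.18%, beside 1.14%). This pattern was noticed after the values were seen and was not tested.

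Histone genes were lower in the KO library as a list. Of 21 that entered, none was higher and 5 were lower by 0.5 or more, and their median was −0.34 beside 0.03 for all genes. H2bc4 stood at 68.6 and 25.5 CPM (−1.42, −1.87 to −0.99), H2ac6 at 44.5 and 17.9 CPM (−1.31, −1.86 to −0.78) and H2ac8 at 73.9 and 39.2 CPM (−0.91, −1.30 to −0.54), while H1f5 and Hist1h2ap each had −0.52. A single WT cell gave 20 of the 128 WT UMIs of H2bc4. Histone genes were higher in the smaller subcluster, which was the rarer in the KO library, and within subclusters their median was −0.22 in the larger and −0.28 in the smaller. In the 4 other clusters it was −0.24, with 4 of 20 lower. How much of the difference in cluster 3 the subclusters account for was not tested.

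Ribosomal protein genes had a median of −0.13 in KO over WT, with 1 of 83 past 0.5 (Rpl38, 0.51). Within the larger and the smaller subcluster the median was −0.11 and −0.03, and in the 4 other clusters −0.10.

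The genes of the DP programme differed little between the libraries. The medians of the lists of DP markers, V(D)J recombination genes, receptor chains and CD3 genes, and signalling kinases and adaptors lay between −0.09 and 0.12. None of the 8, 8, 8 and 20 genes of these lists that entered passed 0.5. Over all genes 3.19% were higher and 1.2% lower by that size, so for lists this short a count of none is near the share of all genes. Cd4 had the highest ratio of the DP markers, 0.25 (0.13 to 0.38), and cells with both coreceptors at 1000 UMIs were 35.7% (31.8 to 39.8) of the WT and 39.1% (35.6 to 42.7) of the KO cells. At the deposited depth these shares were 70.6% and 83.1%. Ly6d had 0.28 (0.22 to 0.34) beside 0.19 in the 4 clusters, and Trbc2 −0.13 (−0.16 to −0.11) beside −0.10.

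Single genes of other lists passed 0.5. Cd69 stood at 20.4 CPM in the WT and 38.1 CPM in the KO library, a log2 ratio of 0.89 (0.35 to 1.48) beside 0.29 (0.02 to 0.56) in the 4 clusters. It was the only 1 of 9 signal reporters to do so, and its ratio was 0.74 in the larger and 0.72 in the smaller subcluster. Of 30 actin and actin-binding genes Tmsb10, which encodes thymosin β10, was the only one past 0.5, with 485 and 757 CPM and a ratio of 0.64 (0.53 to 0.76). Of 13 MHC class I genes it was H2-D1, with 124 and 198 CPM and 0.67 (0.45 to 0.90). Klf6 had 0.67, beside 0.76 in the 4 clusters, and Cbfb, the partner subunit of Runx factors, 0.63. In the smaller over the larger subcluster Klf6 had 0.54 and Cbfb −0.60, and the smaller was the rarer in the KO library. Ratios of KO over WT within the subclusters are not given here for these genes. Of the survival and apoptosis genes named here, Bmf (1.25) and Bcl2l11 (0.51) were higher.

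The interferon response list was mixed in cluster 3. Of 10 genes that entered, Ifi27l2a (25.2 and 54.1 CPM, 1.09, 0.62 to 1.61), Ifi203 (0.55) and Zbp1 (0.50) were higher in the KO library and Isg15 and Bst2 lower, with a median of 0.09. In the 4 other clusters 4 of 11 were higher and none lower, with a median of 0.41. Bst2, the tetherin gene, stood at 96.9 and 60.9 CPM in cluster 3 (−0.67, −0.99 to −0.36) beside −0.16 in the 4 clusters. Isg15, a ubiquitin-like modifier, stood at 39.6 and 22.5 CPM, at −0.82 (−1.34 to −0.31), and had 0.90 (0.64 to 1.17) in the 4 clusters. Its 74 WT UMIs came from 30 cells, of which 1 gave 14. In the smaller over the larger subcluster Bst2 had 1.08, Isg15 0.96 and Ifi27l2a 0.83, and the smaller was the rarer in the KO library. Ratios of KO over WT within the subclusters are not given here for Bst2 and Ifi27l2a. How much of these differences the subclusters account for was not tested.

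Markers of other cell types were summed in each library. The 12 SP markers summed to 418 CPM in the WT and 516 CPM in the KO library of cluster 3 and to 407 and 485 CPM in the 4 clusters, and the 10 γδ T cell markers to 129 and 137 CPM against 81.0 and 91.1 CPM, of which Gzma and Trdc made up the most. In cluster 4 alone the γδ markers summed to more than in cluster 3, 156 CPM in the WT and 185 CPM in the KO library. Within cluster 3 they summed to 197 CPM in the smaller and 76.3 CPM in the larger subcluster. Trdc, the constant gene of the δ chain, stood at 38.6 and 43.8 CPM in cluster 3, whereas Sox13, a factor of γδ cells, had 0 UMIs. The 8 B cell markers summed to 497 and 436 CPM against 401 and 381 CPM. Most of this was Ighm, the constant gene of the immunoglobulin μ chain, at 440 and 377 CPM, with a UMI in 61.9% of the cells of cluster 3 and 53.5% of those of the 4 clusters. Ighm stood at 327 CPM in the 4 clusters together and at 501 CPM in cluster 4, and within cluster 3 at 562 CPM in the smaller and 260 CPM in the larger subcluster. The 10 macrophage markers summed to 122 and 121 CPM (126 and 125 in the 4 clusters), the 9 dendritic cell markers to 205 and 214 CPM (198 and 206), the 8 epithelial markers to 49.3 and 51.0 CPM (52.1 and 59.8), the 7 markers of double-negative thymocytes to 62.1 and 84.2 CPM (62.9 and 71.5), and the 5 erythroid markers to 11.8 and 0.762 CPM (17.1 and 1.02). Of genes that define macrophages, B cells and dendritic cells, C1qa had 1 and 4 UMIs and Cd79a and Flt3 had none, and the part of these markers in the results above was not tested.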

How the data were processed

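Thymocytes of 5 WT and 5 KO mice were pooled into 1 droplet library per genotype. Per the submitters' processing notes the authors used Cell Ranger 3.0.2, STAR, Seurat and build mm10; the annotation version is not given in the sources used here. The authors kept cells of 200 to 6000 genes and at most 50000 reads. They deposited raw UMI counts of 20282 genes in 13683 cells, with cluster numbers at resolutions 1.5, 1.8 and 2. Cells in the deposited matrix held 203 to 5985 genes, and all were used. Each cell's library was read from the WT or KO of its name, although these names say Cdc45 and not Cdc42.

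UMI counts were summed per cluster and library. Cluster 3 held 1867230 WT and 2626260 KO UMIs, which sets the precision of its ratios. Sums were scaled to CPM and log2 ratios taken after adding 0.5 UMIs to each sum. Genes with a mean CPM of both sides of at least 25 entered. Intervals (95%) are conditional binomial for ratios, Poisson for levels and Clopper-Pearson for shares. UMIs, not reads, were counted, and intervals cover counting error only. With 1 library per genotype no p-value was computed. The calculation was tested on simulated data.

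Named genes are the markers Rag1, Dntt and Cd8a, Cdc42, genes of the 36 lists, the 12 highest and 12 lowest ratios of cluster 3 to clusters 0, 1, 2 and 4 by the weaker library (a UMI in at least 10% of cells of the higher side), and the 12 highest and lowest KO over WT ratios among genes with at least 100 UMIs. Some named genes and 1 list are not reported here. Members and lists were chosen with earlier results of these data known. Alternatives were other scalings, filters, priors, cell sets, clusterings and comparison clusters. Python 3.11.15, NumPy 2.4.6, SciPy 1.17.1, pandas 2.3.3, Scanpy 1.11.5, matplotlib 3.10.9, Biopython 1.88, R 4.3.3, edgeR 4.0.16 and DESeq2 1.42.0 were used. Positions and the Trbc sequences are from GENCODE vM21 (GRCm38).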

Additional observations from a re-analysis of the deposited data

Results flagged for a closer look

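Isg15 was lower in the KO library in cluster 3, at a log2 ratio of −0.82 (−1.34 to −0.31), and higher in clusters 0, 1, 2 and 4, at 0.90 (0.64 to 1.17), so the same contrast pointed in opposite directions. In each of clusters 0, 1, 2 and 4 alone the ratio was above 0, at 1.51, 0.92, 0.58 and 0.50. In cluster 3 it was −0.12 in the larger and −1.01 (−1.73 to −0.34) in the smaller subcluster. Each genotype is 1 library, so the difference between the clusters was not tested. A few cells carried much of the count, with 14 UMIs in 1 WT cell and 9 in 1 KO cell of cluster 3.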

How the results depend on the processing

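No paired analysis was possible because each genotype is 1 library. No library could be left out of KO over WT, and cluster 3 was compared with the other clusters within each library. The counts of genes past 0.5 moved with the minimum level and the depth, where the number of genes entering or of UMIs changes by construction, and with the clusters compared. Genes higher and lower in KO than WT numbered 847 and 414 at a minimum of 5 CPM, 17 and 4 at 100 CPM, 3833 and 2239 with no filter, 499 and 319 with cells thinned to 1000 UMIs, 319 and 197 with the resolution 2 cluster that holds most of cluster 3, and, added after the data were seen, 333 and 219 within the larger and 267 and 202 within the smaller subcluster. Genes higher and lower in cluster 3 than in clusters 0, 1, 2 and 4 numbered 132 and 205 at 5 CPM, 5 and 1 at 100 CPM, 3799 and 2581 with no filter and 56 and 79 when thinned. They numbered 90 and 121 against cluster 0 alone, 33 and 43 against cluster 1, 62 and 103 against cluster 2, 36 and 73 within the WT library and, added later, 7 and 2 against clusters 1 and 4. Against cluster 4 alone 52 were higher, and lower genes numbered 30 within the KO library, 4 at resolution 2 and 9 without ribosomal protein and mitochondrial genes in the totals. The Cdc42 ratio was −0.25 when thinned, and the log2 ratio of shares of cells, 0.08, became 0.46 at resolution 2. The cause of these moves was not tested. Ratios of cluster 3 to clusters 0, 1, 2 and 4 changed sign at resolution 2 for 2410006H16Rik (−0.50), Cnn2 (−0.19), Gzma (−0.37), Lgals1 (−0.31), Tdrp (0.13), Vim (−0.19), Zfas1 (−0.57) and the median of γδ T cell markers (−0.15), and against cluster 4 alone for 2410006H16Rik (−0.47), Car2 (0.65), Cnn2 (−0.34), Gm32004 (0.51), Gzma (−0.42), Hmgb1-ps8 (0.014), Lgals1 (−0.40), Ly6d (−0.0031), Map4k5 (0.18), Tdrp (1.62), Topbp1 (0.39), Trdc (−0.30), Trps1 (0.24), Zfas1 (−0.51) and the γδ median (−0.36). The median of TCR β V segments, KO over WT, was −0.14 at 5 CPM and −0.27 with no filter, where more segments entered. Of the other values of named genes and lists under all alternatives, 682 and 943 stayed within their tolerance and 124 and 130 moved. Of these, 8 and 84 that stayed and 14 and 61 that moved lay on the other side of 0, each with a reported value under 0.5 in size, among them Anxa2 (−0.25), Crip1 (−0.23), Msh6 (0.076), Rag1 (0.23), Sin3a (0.19) and Vamp1 (0.13) against cluster 4 alone and Anxa2 (−0.054), Crip1 (−0.15) and Rag1 (0.033) at resolution 2. Leaving out the 5% of cells with most UMIs removed no cell of cluster 3.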
